A study of Mus musculus with 9 samples.

Results

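The neurons described here are inhibitory cells of the mouse central amygdala that were positive for the transcription factor gene Foxp1 and negative for Nr2f2, Prkcd, Sst, Crh, Tac2 and Nts. A gene was scored as present in a cell (positive) from 1 count per 10000 upward, out of all counts on genes without the spike-in standards. Inhibitory cells were positive for Gad1, Gad2 or Slc32a1, which serve GABA synthesis and vesicle loading, and negative for the glutamate transporter genes Slc17a6 and Slc17a7. Of 829 cells in the series, 810 were inhibitory by this rule, 167 of these were Foxp1-positive, and 78 were also negative for all 6 other genes. The cells were chosen by their measured counts of Foxp1, the 6 absent genes, the 3 GABA genes and the 2 glutamate transporter genes, so values of these genes are given as a description only. The same holds for Rarb, Cck, Ctxn3, Htr1f and Mef2c, which were given together with Foxp1 as genes marking these cells.

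Foxp1 encodes a forkhead repressor that is made in striatal projection neurons and is known for its part in their differentiation. Striatal projection neurons are the GABAergic output cells of the caudate, putamen and accumbens, and divide into a direct pathway class with the D1 dopamine receptor and an indirect pathway class with the D2 receptor and enkephalin. The central amygdala also consists mostly of GABAergic neurons, and its cells are usually sorted by genes such as Prkcd, Sst and Crh rather than by dopamine receptors.

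The series holds single-cell RNA-seq counts of cells dissociated from acute slices of the central amygdala of wild-type (WT) B6 mice. All 9 samples belong to this 1 group, and no treatment or age is given in the sources used here. The cells carry 3 animal numbers and 3 date fields, with 1 sample for each combination. The labels do not say whether an animal number on different dates is the same animal, so every p-value here reflects the spread among the 9 samples alone, which may be technical.

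The 3 sets of other inhibitory cells used for comparison were each taken from the same 9 samples. They were the 643 Foxp1-negative cells, the 130 of these that were also negative for the 6 markers (unmarked Foxp1-negative cells), and the 89 Foxp1-positive cells with at least 1 of the 6 markers (marked Foxp1-positive cells). The samples held 85 to 95 cells each, with median gene counts per cell between 96558 and 227570. The 78 Foxp1 neurons held 63153 to 260221 gene counts each. Their median per sample averaged 125257 ± 20734 (SD, n = 9) against 132593 ± 42526 in the Foxp1-negative cells, a difference that did not pass (p = 0.605, exact permutation by sign flips, two-sided). The share of counts on spike-ins averaged 13.6% ± 3.17 in the Foxp1 neurons and 11.9% ± 2.0 in the unmarked Foxp1-negative cells, higher in 8 of 9 samples (exact sign-flip permutation p = 0.0117, unadjusted, the lowest of 9 such tests). No 2 cells had identical counts. Of 376 barcode sequences 368 occurred in more than 1 sample, and pairs of cells with the same barcode in different samples were no more alike (median Pearson r of log2(CPM + 1) across genes 0.37 in 515 pairs) than pairs with different barcodes (0.37).

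The Foxp1 neurons made up 9.66% ± 4.96 of the inhibitory cells of a sample (SD, n = 9), from 4.21% to 17.9%. The mean share was 4.05% where a cell counted as positive at 1 count and 5.85% at 3 counts per 10000. They numbered 4, 5, 4, 17, 10, 13, 9, 5 and 11 in samples 1 to 9. The shares of samples 1 to 3, which share a date field, lay between 4.21% and 5.43%. Those of samples 4 to 6 lay between 10.8% and 17.9%, and those of samples 7 to 9 between 5.81% and 13.1%, so the first date field lay below both others. By animal number the mean shares were 11%, 7.33% and 10.6%. The plot of the share by sample shows the exact (Clopper-Pearson) intervals, which cover counting error only, and samples 1 and 4 mark its extremes.

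**Figure D1:**
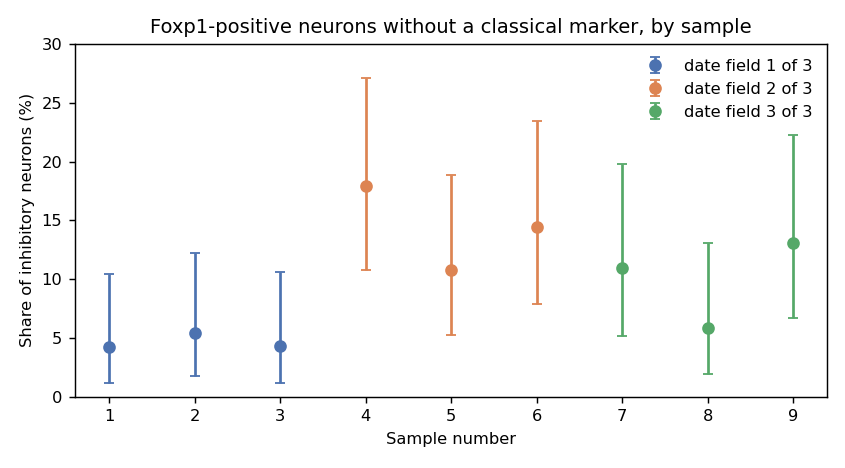
Share of inhibitory neurons (y axis, percent) that were Foxp1-positive without the 6 markers, for samples 1 to 9 (x axis). Bars are exact 95% binomial intervals and colours mark the 3 date fields. The shares run from 4.21% in sample 1 to 17.9% in sample 4.

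Foxp1 itself stood at 271, 409 and 543 CPM, the counts of a gene scaled to the summed gene counts of the class, in the sample with the lowest, median and highest value of the Foxp1 neurons. In the marked Foxp1-positive cells it averaged 207 ± 56.1 CPM (SD, n = 9), and in the Foxp1-negative cells 13.4 ± 3.76 CPM. At the threshold, the 3 Foxp1 neurons with the least Foxp1 had 1.04, 1.07 and 1.17 counts per 10000, and the 3 unmarked cells just outside had 0.995, 0.974 and 0.967. Of the 130 unmarked Foxp1-negative cells 79 had 0 Foxp1 counts. Among the Foxp1 neurons 9 lay between 1 and 1.5 counts per 10000, 63 were at 2 or more and 20 at 5 or more. The absent markers were not all at 0: counts of Sst were found in 36 of the 78 cells, of Tac2 in 27, Prkcd in 20, Nts in 13, Nr2f2 in 6 and Crh in 5, all under the threshold. Summed per sample, Sst averaged 5.88 ± 4.34 CPM against 636 ± 355 in the Foxp1-negative cells.

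Rarb encodes a retinoic acid receptor, Cck the precursor of the peptide cholecystokinin, Ctxn3 the membrane protein cortexin 3, Htr1f a serotonin receptor and Mef2c a transcription factor of the MEF2 family. Rarb and Cck have promoters in which a well-known binding motif could be read, and both windows are shown because they hold that motif close to the start site. The capitals in Rarb mark the direct repeat of GTTCA with 6 bases between its copies, the arrangement of the retinoic acid response element of this gene, and those in Cck mark GTAAACA, a core bound by forkhead factors. The windows come from RefSeq on GRCm38.p6, chr14:16575477-16575588 and chr9:121495695-121495789, both on the minus strand and both upstream of the start site.
Rarb: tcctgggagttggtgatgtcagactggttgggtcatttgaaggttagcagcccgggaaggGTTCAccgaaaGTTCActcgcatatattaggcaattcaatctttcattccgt
Cck: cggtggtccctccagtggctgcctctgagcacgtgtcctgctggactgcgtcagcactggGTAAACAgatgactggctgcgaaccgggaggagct
On both strands of the 250 bases before the start site, the repeat was found in 0.0670% of 32851 promoters and GTAAACA in 3.17%. The 3 promoters listed for each of Foxp1 and Mef2c and the 1 listed for Htr1f held neither motif in this window, which says nothing of the factors. The motifs were chosen after the sequences were read, and nothing in these counts measures binding there.

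Each of the 5 genes was present in part of the Foxp1 neurons. Mef2c was positive in 43 of the 78 cells, Cck in 31, Ctxn3 in 19, Htr1f in 14 and Rarb in 13. At least 1 of the 5 was positive in 55 cells (70.5%) and at least 2 in 34 cells (43.6%), while 23 cells had none. At least 2 were positive in 1.71% of the Foxp1-negative cells, 3.85% of the unmarked Foxp1-negative cells and 6.74% of the marked Foxp1-positive cells. The label therefore covers cells with several of these genes and cells with none, and no single one of the 5 marked them all.

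Per sample, Rarb ran from 15.5 to 82.9 CPM in the Foxp1 neurons with a median of 33.1, and from 0.611 to 4.05 CPM in the Foxp1-negative cells, with no overlap. Mef2c ran from 40.9 to 493 CPM with a median of 299, against 40.0 to 69.0 CPM. Cck ran from 16.4 to 663 CPM with a median of 260, against 0.0873 to 84.5 CPM. The ranges of Mef2c and Cck overlapped. Ctxn3 averaged 87.8 ± 57.6 CPM (SD, n = 9) against 1.33 ± 1.84 CPM and was at 0 in sample 3 of the Foxp1 neurons. Htr1f averaged 42.1 ± 31.5 CPM against 3.17 ± 2.86 CPM.

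**Figure D2:**
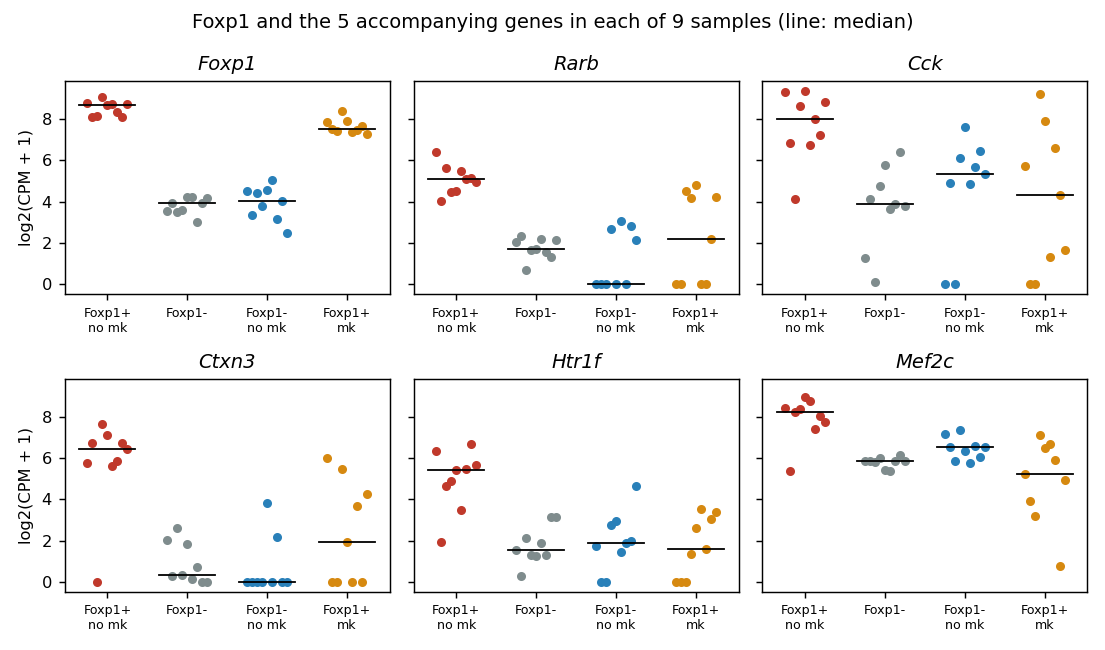
Levels of Foxp1 and the 5 genes given with it (y axis, log2(CPM + 1) of counts summed per sample) in 4 classes of cells (x axis; mk, any of the 6 absent markers), 9 samples each, with the median as a line. Rarb in the Foxp1 neurons (Foxp1+, no mk) lies at 15.5 CPM or more in every sample and at 4.05 CPM or less in the Foxp1-negative cells.

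Pairs of the 5 genes differed in how many cells they shared. Cck and Ctxn3 were both positive in 15 cells, where independent genes with these frequencies would share 7.55. Rarb and Htr1f shared 7 cells against 2.33, and 13 of the 14 Htr1f-positive cells were Mef2c-positive. Rarb and Cck shared 5 cells against 5.17, and Rarb and Ctxn3 4 against 3.17. Rarb also shared 8 of its 13 cells with Pax6, a homeodomain factor, against 3.33. These are counts over cells of all samples, which share depth and sample, with no test.

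The next question was how far the Foxp1 neurons resemble striatal projection neurons, asked first of 26 genes listed as shared by both pathways of these cells. No sample of striatum is in the series, so the list gives no level for a projection neuron itself. It only compares classes of central amygdala cells, and it was chosen with earlier results of these data known. After thinning each cell to 50000 counts, a Foxp1 neuron was positive for 11.4 ± 1.06 of the 26 genes (mean over 9 samples ± SD), from 10 to 13. The Foxp1-negative cells were positive for 8.30 ± 0.335, the unmarked Foxp1-negative cells for 7.39 ± 0.670 and the marked Foxp1-positive cells for 8.60 ± 0.902. The Foxp1 neurons had the higher mean in 9 of 9 samples against each of the 3 classes. The difference from the Foxp1-negative cells averaged 3.82, 3.15 and 2.45 genes over the samples of the 3 date fields, and 3.02 genes without thinning. No p-value is given for this score. Single cells overlapped widely, since the Foxp1 neurons ran from 2 to 19 genes with a median of 11.5 and the Foxp1-negative cells from 1 to 19 with a median of 8.

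**Figure D3:**
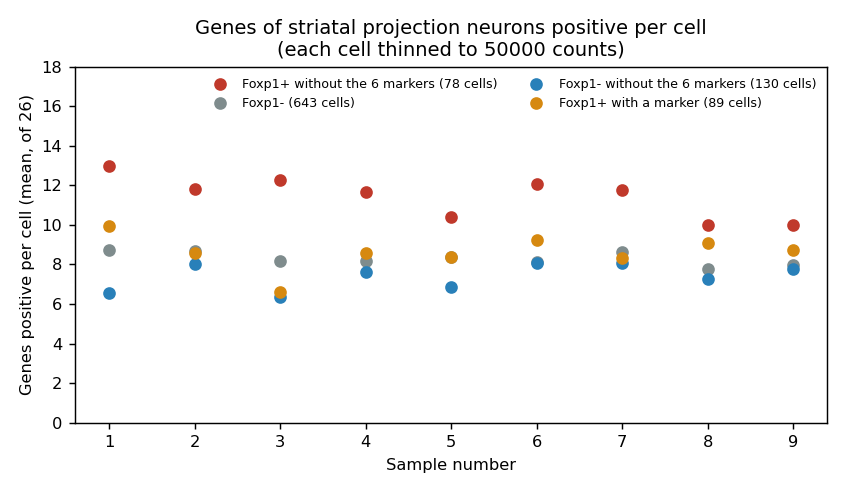
Mean number of the 26 shared genes of striatal projection neurons that a cell was positive for (y axis), per sample (x axis, samples 1 to 9), in 4 classes of cells thinned to 50000 counts. The Foxp1 neurons (red) lie between 10 and 13 and above the other 3 classes in every sample.

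Gene by gene, a few genes of this set passed as higher in the Foxp1 neurons and most did not pass. Of 10757 genes tested against the Foxp1-negative cells, 58 were higher (0.539%) and 231 lower (2.15%) at an edgeR adjusted p under 0.05, and 6 of the 58 are Foxp1 and the 5 genes given with it. Under median-of-ratios scaling the split was 83 higher and 194 lower. Of the 24 shared striatal genes tested 3 were higher, 0 lower and 21 did not pass, with a median log2 fold change of 0.31 against -0.41 over all genes tested. Their summed level was 5098 CPM (3080 to 6601 over samples) against 3119 CPM (2788 to 3479). At an unadjusted p under 0.05, 11 shared striatal genes were higher and 2 lower (237 and 1468 over all genes). By DESeq2 the shared striatal genes gave 11 higher and 2 lower (235 and 1294 over all genes).

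Arpp19, which encodes a cyclic AMP-regulated phosphoprotein, had 417, 570 and 970 CPM in the lowest, median and highest sample of the Foxp1 neurons. The Foxp1-negative cells ranged from 226 to 346 CPM, so the groups did not overlap, and the log2 fold change was 1.24 ± 0.16 (SE, n = 9, adjusted p = 0.000404). Arpp19 was positive in 92.3% of the Foxp1 neurons, or 91.2% as the mean over samples. That mean was 68.7% in the Foxp1-negative cells, 68.5% in the unmarked Foxp1-negative cells and 74.6% in the marked Foxp1-positive cells, so most cells of each class carried it. Ngef, a guanine nucleotide exchange factor that acts downstream of Eph receptors, had a log2 fold change of 0.83 ± 0.17 (adjusted p = 0.0163) and was higher in 8 of 9 samples. The call of Ngef was lost without sample 4 or sample 6, with an adjusted p of 0.0508 to 0.0523. Ngef did not pass with equal cell numbers (adjusted p = 0.224) or without Mbp-positive cells (0.0961).

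Several of the best known striatal genes did not pass against the Foxp1-negative cells. Ppp1r1b, which encodes the dopamine-regulated phosphatase inhibitor DARPP-32, had 189, 661 and 1014 CPM in the lowest, median and highest sample, against 237 to 443 CPM. The ranges overlapped and 2 of 9 samples had less, with a log2 fold change of 0.72 ± 0.24 (adjusted p = 0.136). Rgs9, a regulator of G protein signalling, was positive in 41.0% of the Foxp1 neurons and 37.3% of the Foxp1-negative cells, with a log2 fold change of -0.23 ± 0.32 (adjusted p = 0.748). For the phosphodiesterase gene Pde10a it was 0.29 ± 0.46 (adjusted p = 0.782) and for the adenylyl cyclase gene Adcy5 0.56 ± 0.22 (adjusted p = 0.224). A p that misses the threshold does not show that these levels were equal. The plot of log2 fold changes shows the shared genes together with those of the separate pathways.

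**Figure D4:**
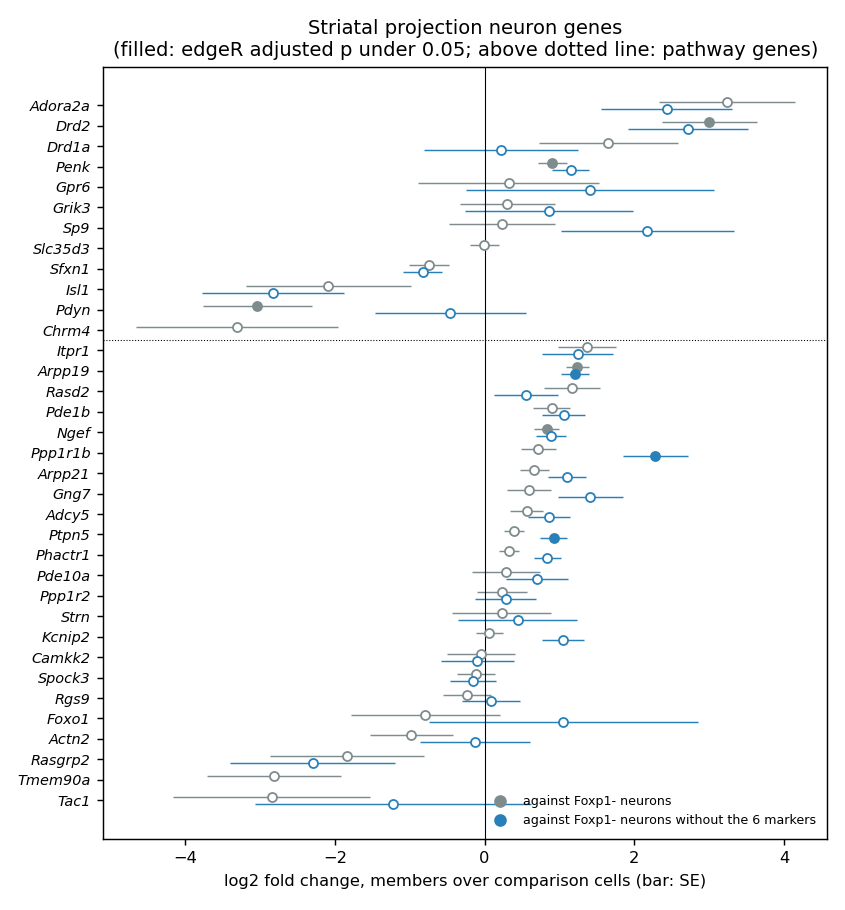
Log2 fold change (x axis, with SE) of the Foxp1 neurons over the Foxp1-negative cells (grey) and over the unmarked Foxp1-negative cells (blue), for shared striatal genes below the dotted line and genes of the 2 pathways above it. Filled points passed at an edgeR adjusted p under 0.05: Arpp19, Ngef, Drd2, Penk and Pdyn in grey, and Arpp19, Ppp1r1b and Ptpn5 in blue.

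Among genes of the 2 pathways, 2 of 6 indirect pathway genes were higher and 1 of 7 direct pathway genes was lower. The median log2 fold changes were 0.61 for the indirect and -2.09 for the direct pathway genes. Against the unmarked Foxp1-negative cells 0 of 6 indirect and 0 of 5 direct pathway genes passed in the edgeR fit, with medians of 1.79 and -0.82 (3 indirect genes higher and 2 direct genes lower unadjusted, 3 and 1 by DESeq2). Against the marked Foxp1-positive cells 0 of 5 and 0 of 4 passed, with medians of 1.04 and -0.34 (1 indirect gene higher and 1 direct gene lower unadjusted, and by DESeq2 2 indirect genes and 1 direct gene higher). Drd2, the D2 dopamine receptor, had 13.0, 44.5 and 66.1 CPM in the lowest, median and highest sample of the Foxp1 neurons, against 1.05 to 11.6 CPM in the Foxp1-negative cells. The groups did not overlap, and the log2 fold change was 3.0 ± 0.63 (SE, n = 9, adjusted p = 0.0205). Drd2 did not pass without sample 1, 3, 5 or 6 (adjusted p 0.0508 to 0.0637), with equal cell numbers (0.114) or without Mbp-positive cells (0.294). Within the 3 date fields Drd2 was 9.64, 10.8 and 3.88 times its level in the Foxp1-negative cells. Penk, the enkephalin precursor, had 1493, 3109 and 7210 CPM against 1566 to 2232 CPM, with overlap at the low end and 8 of 9 samples higher, with a log2 fold change of 0.91 ± 0.20 (adjusted p = 0.0240). Penk lost its call without sample 1, 3, 4, 6 or 7 (adjusted p 0.0546 to 0.0630), with equal cell numbers (0.535) and without Mbp-positive cells (0.0840). Adora2a, the A2a adenosine receptor, averaged 17.1 ± 8.32 CPM against 2.02 ± 1.5 CPM but was positive in 1 cell, and its log2 fold change of 3.23 ± 0.91 did not pass (adjusted p = 0.0729).

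On the direct pathway side, Pdyn, the dynorphin precursor, was lower at 74.0 ± 78.8 CPM against 354 ± 155 CPM (log2 fold change -3.03 ± 0.73, adjusted p = 0.0384), and it was lower in 9 of 9 samples. The call of Pdyn was lost in 7 of 9 fits with a sample left out (without 1, 2, 3, 4, 5, 8 or 9, adjusted p 0.0556 to 0.0892), and with equal cell numbers its adjusted p was 0.910. Against the unmarked Foxp1-negative cells, at 71.5 ± 86.6 CPM, Pdyn had a log2 fold change of -0.46 ± 1.01 (adjusted p = 0.922) and was lower in 5 of 9 samples. Drd1a, the D1 dopamine receptor, averaged 38.8 ± 39.6 CPM against 7.04 ± 5.44 CPM and was higher in 6 of 9 samples (log2 fold change 1.66 ± 0.93, adjusted p = 0.406). Tac1, the precursor of substance P and counted here both among the shared and among the direct pathway genes, had a log2 fold change of -2.84 ± 1.31 (adjusted p = 0.309), whose sign turned with equal cell numbers. The LIM factor gene Isl1 had a log2 fold change of -2.09 ± 1.10 (adjusted p = 0.371). Of the 78 cells 10 were positive for Drd1a only, 12 for Drd2 only, 1 for both and 55 for neither.

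Transcription factor genes of striatal projection neuron development had 0 of 18 higher, 1 lower and a median of -0.36 in the edgeR fit (1 and 4 at an unadjusted p under 0.05, and 1 and 4 by DESeq2). Bcl11b, a zinc finger factor needed for striatal differentiation, averaged 364 ± 152 CPM in the Foxp1 neurons and 428 ± 46.2 CPM in the Foxp1-negative cells (log2 fold change -0.36 ± 0.22, adjusted p = 0.435). Meis2, a homeodomain factor, was at 0.08 ± 0.15 (adjusted p = 0.815), and Foxp2, the paralog of Foxp1, at 1.36 ± 1.47 (adjusted p = 0.671), positive in 6 cells. The gene that was lower was Dlx1, at 20 counts in all of the Foxp1 neurons, and it lost its call in all 8 fits in which it could be tested with a sample left out (without 1, 2, 3, 5, 6, 7, 8 or 9, adjusted p 0.0703 to 0.0953) and could not be tested with equal cell numbers or without Mbp-positive cells. Its counts lay in 1 of 9 samples of the Foxp1 neurons. Dlx1 could thus pass the filter for low counts only with the Foxp1-negative cells, and its fall is a description. The strand of counting is not given, so reads of Dlx1 and its antisense gene cannot be told apart. Eccentric and patch genes of the striatum gave 0 higher and 0 lower of 8 in the edgeR fit (0 and 2 unadjusted, 0 and 1 by DESeq2).

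Intercalated cells, small GABAergic neurons in clusters around the central amygdala, are known for Foxp2, Tshz1 and the mu opioid receptor. Of 10 genes listed for them 2 were higher (Pax6 and Penk) and 1 lower (Erbb4), with a median of -0.14. Unadjusted, 2 were higher and 3 lower, and by DESeq2 2 and 2. Penk is also counted among the indirect pathway genes. Pax6 had 28.2, 73.2 and 269 CPM in the lowest, median and highest sample of the Foxp1 neurons, against 4.84 to 25.7 CPM. The groups did not overlap, and the log2 fold change was 2.46 ± 0.47 (adjusted p = 0.0107), although Pax6 did not pass with equal cell numbers (0.365) or without Mbp-positive cells (0.217). Pax6 was positive in 20 of the 78 cells. Its median sample had 31.6 CPM in the marked Foxp1-positive cells (2.19 to 67.7) and 5.36 CPM in the unmarked Foxp1-negative cells (0 to 40.4), against 14.8 CPM in all Foxp1-negative cells. Erbb4, the neuregulin receptor, had 5 counts in the Foxp1 neurons and was lower in 9 of 9 samples (adjusted p = 0.0156), a call lost without Mbp-positive cells (0.0789) and not testable with equal cell numbers. Those counts lay in 3 of 9 samples. Erbb4 could thus pass the filter for low counts only with the Foxp1-negative cells, and its fall is a description. Tshz1 (log2 fold change -0.37 ± 1.53, adjusted p = 0.923) and the mu opioid receptor gene Oprm1 (-0.65 ± 1.68, adjusted p = 0.871) did not pass and had wide errors, and the sign of both, like that of Foxp2, turned under some alternative settings. Of the 4 genes tested from the interneuron list 0 passed in the edgeR fit (1 lower unadjusted, 3 lower by DESeq2), and Chat, Slc5a7, Nkx2-1 and Maf had 0 counts in the Foxp1 neurons. All 17 listed genes found summed to 277 CPM (45.6 to 541 over samples) there, against 550 CPM (228 to 1898) in the Foxp1-negative cells.

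The largest rise among the genes named by the rule was that of Gucy1a3, which encodes the alpha subunit of soluble guanylyl cyclase, the nitric oxide receptor. It had 56.3, 214 and 285 CPM in the lowest, median and highest sample, against 0.901 to 35.8 CPM in the Foxp1-negative cells. The groups did not overlap, and the log2 fold change was 3.98 ± 0.36 (SE, n = 9, adjusted p = 1.4e-05). Gucy1a3 was positive in 37 of the 78 cells (47.4%) and in 4.67% of the Foxp1-negative cells. It was 19.7, 7.69 and 18.1 times its level in the Foxp1-negative cells within the 3 date fields, and passed with equal cell numbers (adjusted p = 0.00536).

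Hpca, the gene of the calcium sensor hippocalcin, was positive in all 78 Foxp1 neurons and in 80.7% of the Foxp1-negative cells. It had 907, 1578 and 2001 CPM in the lowest, median and highest sample against 424 to 676 CPM, with no overlap and a log2 fold change of 1.35 ± 0.14 (adjusted p = 7.96e-05). Rgs7bp, which anchors RGS proteins at the membrane, rose by 1.24 ± 0.14 (adjusted p = 0.000135), higher in 9 of 9 samples. Calb1, the calcium-binding protein calbindin, averaged 666 ± 249 CPM against 364 ± 48.4 CPM (log2 fold change 0.76 ± 0.16, adjusted p = 0.0230). Calb1 did not pass without sample 4, 5, 6 or 9 (adjusted p 0.0524 to 0.0649). With equal cell numbers Gucy1a3, Hpca, Arpp19, Rgs7bp and Calb1 were the 5 that passed of the 25 higher genes named by the rule.

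Other genes with large rises were Rasgrf2, a Ras exchange factor (log2 fold change 2.28 ± 0.34, adjusted p = 0.00191), Msra, a methionine sulfoxide reductase (1.97 ± 0.48, adjusted p = 0.0391), and Myh7, a myosin heavy chain (1.75 ± 0.17, adjusted p = 3.71e-05). Upk1b, a uroplakin, rose by 1.66 ± 0.29, Nell2, a secreted neural glycoprotein, by 1.53 ± 0.25, Id4, an inhibitor of bHLH factors, by 1.52 ± 0.22, and Odz2, a teneurin, by 1.47 ± 0.16. All 7 were higher in 9 of 9 samples, which the rule that named them by fold required. Msra lost its call without any sample but 3 (adjusted p 0.0659 to 0.0997), while Rasgrf2, Myh7, Upk1b, Nell2, Id4 and Odz2 kept theirs in all 9. None of the 7 passed with equal cell numbers, where the adjusted p ran from 0.0687 to 0.577. Rasgrf2, Msra and Id4 did not pass without Mbp-positive cells (adjusted p = 0.0915, 0.135 and 0.428), and with cells called positive at 1 count the sign of Upk1b turned (-1.30).

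Counts for receptor and signalling lists stand beside a share over all genes tested of 0.539% higher and 2.15% lower. Of 24 genes for dopamine, adenosine, muscarinic and cannabinoid receptors and cyclic AMP enzymes 3 were higher and 2 lower. The phosphodiesterase gene Pde4b rose by 1.75 ± 0.31 (adjusted p = 0.00761), and Gnal, the olfactory type G protein subunit that couples striatal dopamine and adenosine receptors to adenylyl cyclase, by 0.77 ± 0.18 (adjusted p = 0.0346). Gnas, the widespread stimulatory subunit, fell by 1.32 ± 0.24 on the log2 scale (adjusted p = 0.00800), at 930 ± 645 CPM against 1907 ± 297 CPM, and lower in 8 of 9 samples. Gnal lost its call without sample 3, 4, 5, 6, 7 or 9 (adjusted p 0.0709 to 0.0938). With a sample left out Gnas and Pde4b passed in all 9 fits, but with equal cell numbers Gnal, Gnas and Pde4b did not pass (adjusted p = 0.302, 0.236 and 0.485), and Gnal and Pde4b did not pass without Mbp-positive cells (0.430 and 0.119). Of 33 glutamate and GABA receptor genes Grin2b, an NMDA receptor subunit, was higher (0.84 ± 0.16, adjusted p = 0.00944), a call lost with equal cell numbers (0.0743) and without Mbp-positive cells (0.0638). Of 25 potassium channel genes 0 passed in the edgeR fit (1 higher unadjusted, 1 higher and 2 lower by DESeq2). Of 39 guidance and adhesion genes Epha4 (0.80 ± 0.17) and Robo2 (1.15 ± 0.29) were higher and Sema6a lower. Sema6a had counts in 3 of 9 samples of the Foxp1 neurons. It could pass the filter for low counts only with the Foxp1-negative cells, so its fall is a description. Without single samples Epha4 lost its call for 1, 4 or 5 (adjusted p 0.0552 to 0.0584), Robo2 for any but 3 (0.0653 to 0.128) and Sema6a for any but 2 (0.0850 to 0.105). Epha4 and Robo2 did not pass with equal cell numbers (0.180 and 0.204), nor Robo2 and Sema6a without Mbp-positive cells (0.120 and 0.231), and the sign of Epha4 turned with cells called positive at 1 count (-0.51).

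Partners of the genes given with Foxp1 gave no passing gene in the edgeR fit. Of 11 genes for retinoic acid synthesis, breakdown and binding 0 passed, with a median of -0.62 (0 higher and 5 lower unadjusted, 1 and 4 by DESeq2). Aldh1a1, Aldh1a3 and Cyp26a1, enzymes of retinoic acid synthesis and breakdown, had 0 counts in the Foxp1 neurons. Of 7 MEF2 factors and class IIa histone deacetylases and related regulators 0 passed, with a median of -0.16 (1 lower unadjusted, 1 lower by DESeq2), and Mef2a was at 0.01 ± 0.18 (adjusted p = 0.983). Of 4 other serotonin receptor genes 0 passed (1 lower unadjusted, 0 by DESeq2).

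Among neuropeptide genes 1 of 12 was higher, Penk, and 4 were lower (Cartpt, Vgf, Crhbp and Pdyn). Cartpt, the precursor of the CART peptide, had 1.0, 4.46 and 243 CPM in the lowest, median and highest sample of the Foxp1 neurons against 425 to 797 CPM, with no overlap. Its log2 fold change was -4.97 ± 0.84 (adjusted p = 0.00531), with 7 of the 78 cells positive. The granin-like precursor gene Vgf was at -1.5 ± 0.31 (adjusted p = 0.0169). Neither Cartpt nor Vgf passed with equal cell numbers (0.372 and 0.766), and Vgf did not pass without Mbp-positive cells (0.208). The Foxp1-negative cells include all cells sorted by Prkcd, Sst, Crh, Tac2, Nts and Nr2f2 alone, and the Foxp1 neurons exclude them by rule. Against the unmarked Foxp1-negative cells, Cartpt had a log2 fold change of -1.45 ± 1.20 (adjusted p = 0.764).

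The genes with the largest falls were at or near 0 counts in the Foxp1 neurons. Of the 231 lower genes 21 had at most 3 counts there. Such genes could pass the filter for low counts only with the counts of the Foxp1-negative cells, so their falls are a description. Car8, a carbonic anhydrase-related protein, and Ppapdc1a, a lipid phosphatase, had 0 counts in the Foxp1 neurons and were at least 74.8-fold and 55.3-fold lower than in the Foxp1-negative cells, with 3 counts over all Foxp1 neurons as the limit that 0 allows. The call of Car8 was lost without sample 4, 5 or 6 (adjusted p 0.0513 to 0.0523) and that of Ppapdc1a without any sample but 2 (0.0512 to 0.0649). Akap12, a kinase anchoring protein, had 1 count, and its level in the Foxp1-negative cells was 162 times as high (95% interval for counting error 29.0 to 6393). Igfbp2, which binds insulin-like growth factors, had 2 counts and a ratio of 93.5 (25.8 to 773), and Kctd12b 3 counts and a ratio of 59.9 (20.5 to 291). For Mfsd2a, Tmprss7, Cdc14a, Khnyn, Nup62cl and Cenpm, each with 1 count, the ratios were between 102 and 149. Each of these 6 lost its call without 1 sample, namely 5, 9, 6, 6, 6 and 1 in this order (adjusted p 0.0512 to 0.0609). Sostdc1, a secreted BMP and Wnt antagonist, had 12 counts, found in 2 of 9 samples, so its fall is a description too. These genes were positive in 3.58% to 10.7% of the Foxp1-negative cells, so that few cells carried them there too. Most were also low in the unmarked Foxp1-negative cells, where the median sample had 0 CPM of Car8, Igfbp2, Cdc14a, Cenpm and Tmprss7. That median was 0.289 CPM for Mfsd2a, 0.522 for Nup62cl, 0.842 for Sostdc1 and 2.60 for Akap12. It was 7.82 for Khnyn, 7.86 for Kctd12b and 20.6 for Ppapdc1a. Over the 231 lower genes, 7 of them genes of the rule, the median was 35 counts in the Foxp1 neurons, and with equal cell numbers 3 were lower, of the 94 that could still be tested. The median log2 fold change over all genes then was 0.02 in place of -0.41.

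The unmarked Foxp1-negative cells hold the absence of the 6 markers equal, so that by the rule the 2 classes differ in Foxp1 alone. Among 9060 genes the Foxp1 neurons had 16 higher (0.177%) and 8 lower (0.0883%), with Foxp1 and 1 of the 5 genes given with it among the 16. Both comparisons share the Foxp1 neurons. Ppp1r1b had 189, 661 and 1014 CPM in the lowest, median and highest sample against 11.8, 113 and 282 CPM, higher in 9 of 9 samples although the ranges overlapped. Its log2 fold change was 2.28 ± 0.44 (SE, n = 9, adjusted p = 0.0430), and 75.6% of the Foxp1 neurons but 21.5% of these cells were positive. The call of Ppp1r1b was lost without sample 1, 4, 5, 6, 7 or 8 (adjusted p 0.0561 to 0.132). Arpp19 rose by 1.21 ± 0.19 (adjusted p = 0.0198), Gnal by 1.09 ± 0.19 (0.0296), Gucy1a3 by 2.62 ± 0.48 (0.0343) and Hpca by 0.85 ± 0.15 (0.0296). Without single samples Arpp19 lost its call for 4 or 6 (0.0633 to 0.0820), Gnal for any but 2 or 8 (0.0511 to 0.0969), Hpca for any but 1 or 2 (0.0511 to 0.0870) and Gucy1a3 for any but 2 or 5 (0.0512 to 0.123). Of the 23 shared striatal genes tested 3 were higher and 0 lower, namely Arpp19, Ppp1r1b and the phosphatase gene Ptpn5, with a median of 0.87 against -0.19 over all genes. Unadjusted, 12 of these shared genes were higher and 0 lower (243 and 596 over all genes), and by DESeq2 11 and 0 (147 and 332).

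Lower in the Foxp1 neurons than in these unmarked cells were Aldoc, an aldolase of astrocytes and some neurons (-4.48 ± 0.73, adjusted p = 0.0252), and Stmn2, a microtubule regulator (-2.08 ± 0.35, adjusted p = 0.0262). Nap1l5 (-1.44 ± 0.24), which lies within Herc3, the G protein subunit gene Gng2 (-1.24 ± 0.21), the synaptotagmin gene Syt4 (-1.10 ± 0.20), Gnas (-1.57 ± 0.27), the tetraspanin gene Cd81 (-0.96 ± 0.18) and the neuronal tubulin gene Tubb3 (-0.96 ± 0.18) were lower as well. All but Gnas were lower in 9 of 9 samples, which the rule that named them by fold required. Aldoc lost its call without sample 4 or 6, Gng2 without 4, 5, 6 or 7, Stmn2 without 1, 4, 5, 6 or 7, Nap1l5 without 1, 3, 4, 5, 6 or 7, Tubb3 without any but 7 or 8, Syt4 without any but 9, Gnas without 1, 3, 4, 5, 6 or 7, and Cd81 in each of the 9 fits (adjusted p 0.0511 to 0.130). None of the 9 higher and 8 lower genes of the rule passed in every fit with a sample left out. Without sample 4 or sample 6 the number of genes passing was 1 higher and 0 lower, and without Mbp-positive cells 2 and 0 (499, 474 and 429 lower at an unadjusted p under 0.05). With equal cell numbers Ppp1r1b (adjusted p = 0.0266), Arpp19 (0.000984), Aldoc (0.0172), Stmn2 (0.0110), Nap1l5 (0.0186) and Gnas (0.0346) passed.

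The marked Foxp1-positive cells hold Foxp1 positivity equal, although their mean Foxp1 level was lower than that of the Foxp1 neurons. Among 8274 genes 21 were higher (0.254%) and 45 lower (0.544%), and 2 of the 21 and 2 of the 45 belong to the rule or to the 5 given genes. Hpca was again higher, at 1464 ± 370 CPM against 622 ± 246 CPM (log2 fold change 1.25 ± 0.16, adjusted p = 0.00176), as were Rgs7bp (1.39 ± 0.19, adjusted p = 0.00299) and Odz2 (1.56 ± 0.25, adjusted p = 0.00945), and these 3 passed with each sample left out. Rgs7bp did not pass with equal cell numbers (adjusted p = 0.0560), and neither Rgs7bp nor Hpca passed without Mbp-positive cells (0.109 for both), while Odz2 passed in both. Gucy1a3 rose by 4.02 ± 0.88 (adjusted p = 0.0485), a call kept without sample 4 or 5 and lost without any of the other 7 (adjusted p 0.0862 to 0.140) and with equal cell numbers (0.132). Lower were the cochlin gene Coch (-5.44 ± 0.81, adjusted p = 0.00521), the endonuclease-like gene Eepd1 (-3.10 ± 0.62, adjusted p = 0.0319), Sostdc1 (-6.43 ± 1.22, adjusted p = 0.0227) and Cartpt (-5.0 ± 1.04, adjusted p = 0.0402). Coch passed in all 8 fits that could test it with a sample left out but could not be tested with equal cell numbers or without Mbp-positive cells, Eepd1 was lost without sample 3, 6, 7, 8 or 9 (adjusted p 0.0593 to 0.0866) and Sostdc1 without 5, 6, 7, 8 or 9 (0.0511 to 0.0753). Cartpt was lost without any sample but 1 or 9 (0.0663 to 0.114). Fewer of the unmarked Foxp1-negative cells than of the marked cells were positive for these genes as well. The mean shares over samples were 3.91% against 31.1% for Coch and 22.0% against 48.5% for Eepd1. They were 1.62% against 14.6% for Sostdc1 and 8.77% against 43.9% for Cartpt. Sostdc1 had counts in 2 of 9 samples of the Foxp1 neurons, so it could pass the filter for low counts only with the marked cells. Of the 10 lower genes of the rule 8 could be tested without Mbp-positive cells and 7 with equal cell numbers, and none of these passed. Of the 22 shared striatal genes Arpp19 alone passed (0.98 ± 0.18, adjusted p = 0.0196, lost without sample 6 or 9 at 0.0608 to 0.0638), with a median of 0.55 against -0.08 over all genes. Unadjusted, 9 of these shared genes were higher and 0 lower (299 and 373 over all genes), and by DESeq2 7 and 0 (208 and 237). Ppp1r1b stood at a log2 fold change of 0.73 ± 0.29, which did not pass (adjusted p = 0.473).

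Within the Foxp1 neurons Pax6 and some striatal genes were positive in more of the cells that carried more of the 5 given genes, and other striatal genes were not. The 23 cells with none were positive for a median of 10 of the 26 shared genes, the 21 cells with 1 for 11 and the 34 cells with 2 to 5 for 12, with ranges of 2 to 16, 4 to 18 and 6 to 19 that largely coincide. Pax6, from the list for intercalated cells, was positive in 13.0%, 14.3% and 41.2% of these cells. Among striatal genes Ppp1r1b was positive in 60.9%, 81.0% and 82.4%, and Penk in 78.3%, 85.7% and 94.1%. Drd1a was positive in 4.35%, 14.3% and 20.6%, and Drd2 in 13.0%, 14.3% and 20.6%. Bcl11b was positive in 69.6%, 85.7% and 67.6%, and Isl1 in 13.0%, 4.76% and 5.88%. The median Foxp1 level also differed, at 2.14, 3.41 and 4.25 counts per 10000, while the median gene counts were 125128, 129787 and 128800. The 3 sets came from 8, 8 and 9 samples. These are counts over cells, with no test.

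**Figure D5:**
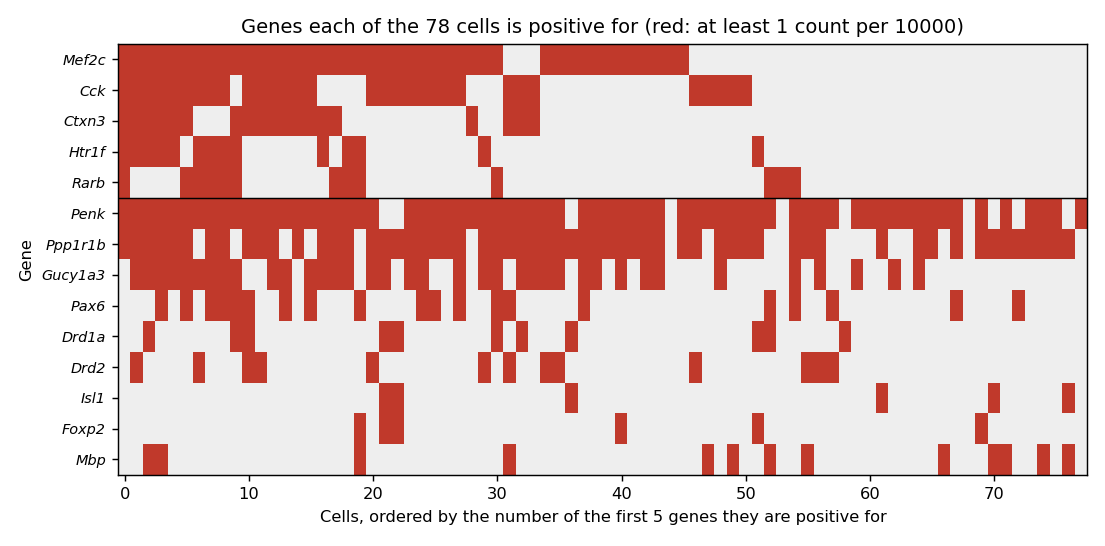
Genes (rows) for which each of the 78 Foxp1 neurons (columns, ordered by how many of the first 5 genes they carry) was positive, in red. Mef2c, Cck, Ctxn3, Htr1f and Rarb lie above the line, and Pax6 is positive in 41.2% of the 34 cells with 2 or more of them and in 13.0% of the 23 with none.

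Defining genes of several other cell types had 0 counts. In the Foxp1 neurons all 6 microglial genes and all 3 precursor genes had 0 counts, as did 4 of 8 astrocyte genes (Aqp4, Gfap, Aldh1l1 and Gja1), 2 of 8 oligodendrocyte genes (Cldn11 and Opalin) and 3 of 6 vascular genes (Cldn5, Flt1 and Rgs5). The other vascular genes brought that list to 90.8 CPM (14.0 to 157 over samples) against 78.6 CPM (63.1 to 100.2) in the Foxp1-negative cells, nearly all of it Itm2a at 88.6 and 77.4 CPM. The astrocyte list summed to 66.2 CPM (3.13 to 266) against 228 CPM (94.0 to 389), so the ranges overlapped. Aldoc reached 66.2 CPM in its highest sample of the Foxp1 neurons, so other astrocyte genes made up most of the 266 CPM. Ependymal genes summed to 6.99 CPM (0 to 28.2) against 2.97 CPM (0.160 to 9.02), with Tmem212 at 0. The list for excitatory neurons summed to 340 CPM (228 to 494) against 416 CPM (379 to 509), and in the Foxp1 neurons all of it was Nrgn, a calmodulin-binding protein of forebrain neurons, with the other 6 genes at 0. The summed oligodendrocyte genes ranged from 53.2 to 259 CPM over samples in the Foxp1 neurons, from 105 to 3871 CPM in the Foxp1-negative cells and from 45.4 to 19510.5 CPM in the unmarked ones. Mbp, a myelin gene, was positive in 16.7% of the Foxp1 neurons and 26.4% of the Foxp1-negative cells. Without Mbp-positive cells 24 genes were higher and 53 lower than in the Foxp1-negative cells, from 8 samples. Aldoc, an astrocyte gene, was lower than in the Foxp1-negative cells (adjusted p = 0.0200), a call lost without sample 1 (0.0510), with equal cell numbers (0.319) and without Mbp-positive cells (0.0645). Cnp, a myelin gene, was lower too (adjusted p = 0.0260) and lost its call without sample 3, 4, 5, 6, 8 or 9 (0.0523 to 0.107) and without Mbp-positive cells (0.347). With counts in 4 of 9 samples of the Foxp1 neurons, Cnp could pass the filter for low counts only with the Foxp1-negative cells, so its fall is a description. The part of glial RNA in the other results was not tested.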

How the data were processed

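Unnormalized counts, 1 value for each gene and cell, were deposited by the authors in 1 table of 22601 genes, of which 22299 had a count, with labels for animal number and date. Genome build NCBIM37 and the tool Seurat come from the submitters' processing notes. Aligner, annotation, strand and molecular identifiers: not given in the sources used here. No cell was removed for depth and no doublet caller was run. Members and gene lists (26 lists, 378 genes, 365 found in the table) were chosen with earlier results of these data known.

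For each sample with at least 3 cells in both classes, counts were added up by class and tested with edgeR 4.0.16 on R 4.3.3, using TMM scaling, filterByExpr and the quasi-likelihood test. The sample was a block, because both classes are cells of that sample. The threshold was 0.05 on p-values adjusted over all genes tested by Benjamini and Hochberg. Genes that defined the cells stayed in the fit but have no test. CPM is the mean over samples. Named genes are up to 12 per direction (8 in the comparisons with unmarked or marked cells) with the largest fold, at least 10 CPM and the same sign in every sample, up to 3 passing genes per list, and fixed striatal genes. Some are not described, and 1 shared striatal gene is counted in its list but not reported here. Intervals and bounds cover counting error only. Thinning and the single draw of equal cell numbers used seed 11. The fits were tested on simulated data.

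Alternatives were DESeq2 1.42.0, median-of-ratios scaling, no filter, no block, other thresholds for a positive cell, thinning, equal cell numbers, at least 5 cells, leaving out Mbp-positive cells or cells under 20000 counts, and leaving out each sample. Sums per animal number and per date field were chosen after seeing the data. Python 3.11.15 ran pandas 2.3.3, numpy 2.4.6, matplotlib 3.10.9 and scipy 1.17.1.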

Additional observations from a re-analysis of the deposited data

Results flagged for a closer look

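In 5 of 28 sets of values over the samples, 1 sample of the Foxp1 neurons lay far above the others by Dixon's criterion, which chance meets in about 1 of 20 groups. Rarb reached 82.9 CPM in 1 sample, with the others between 15.5 and 49.3 CPM. Pdyn reached 237 CPM against 0 to 118 CPM. Foxp2 reached 179 CPM against 0 to 69.0 CPM, and Isl1 104 CPM against 0 to 34.9 CPM. Oprm1 reached 48.1 CPM against 0 to 23.9 CPM.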

How the results depend on the processing

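Counts of passing genes (higher, then lower) moved with the processing, and the cause was not tested beyond the fewer cells or samples that some settings leave. Against the Foxp1-negative cells 58 and 231 passed with the sample as a block. The pairing rests on cells of the same sample, and with no replicate block 98 and 146 passed. DESeq2 gave 235 and 1294, positive at 1 count 4 and 16, no Mbp-positive cells 24 and 53, equal cell numbers 15 and 3, and sums per animal number 26 and 24. Only the lower count moved at 3 per 10000 (54), with at least 5 cells (67), with sums per date field (28) and with single samples left out (97 to 151).

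Against the unmarked Foxp1-negative cells (16 and 8) no filter gave 50 and 77, no replicate block 32 and 15, DESeq2 147 and 332, and thinning 27 and 16. Positive at 1 count gave 0 and 0 (95 and 68 at an unadjusted p under 0.05), at least 5 cells 2 and 0 (407 lower unadjusted), no Mbp-positive cells 2 and 0 (429), sums per animal number 7 and 3, and sums per date field 2 and 4. Equal cell numbers gave 8 higher, 3 per 10000 gave 25 lower, and leaving out single samples gave 1 to 20 higher and 0 to 9 lower, the counts that moved being 1 to 7 and 0 to 3. Against the marked Foxp1-positive cells (21 and 45) no filter gave 43 and 84, DESeq2 208 and 237, positive at 1 count 0 (72 unadjusted) and 9, at least 5 cells 10 and 19, no Mbp-positive cells 3 and 12, equal cell numbers 5 and 8, sums per animal number 8 and 22, and sums per date field 8 and 20. Leaving out single samples gave 6 to 16 higher, the counts that moved being 6 to 13, and 10 to 29 lower. This comparison was not run at 3 per 10000, where 1 sample qualified. The mean share of Foxp1 neurons, 9.66%, was 4.05% at 1 count and 5.85% at 3 per 10000, and the breadth difference of 3.14 stayed between 2.40 and 3.28.

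Signs against the Foxp1-negative cells turned for 8 genes. At 1 count Upk1b was at -1.30, Epha4 at -0.51, Tac1 at 0.43 and Tshz1 at 0.30. Rgs9 was at 0.0061 with at least 5 cells, 0.013 with equal cell numbers and 0.22 per animal number, Tac1 at 0.47 with equal cell numbers, and Meis2 at -0.0046 after thinning. Foxp2 was at -2.02 at 3 per 10000 and -0.093 with at least 5 cells. Tshz1 was at 0.43 with no replicate block, 0.20 without Mbp-positive cells, 0.33 per date field, and with single samples left out it ran from -1.06 to 0.26, above 0 without 2, 3 or 5. Oprm1 was at 0.63 with no replicate block, 0.69 with at least 5 cells, 0.94 without Mbp-positive cells, 0.44 per date field, and with single samples left out it ran from -1.52 to 0.13, above 0 without 3, 4 or 5.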
